A study of Mus musculus with 6 samples.

Results

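The Schlafen genes Slfn1, Slfn2, Slfn4, Slfn5 and Slfn8 and the poly(ADP-ribose) polymerase genes Parp9, Parp10, Parp12 and Parp14 were read in mouse macrophages given KLA, a stimulus of the innate immune receptor TLR4. They were 9 genes of the 23282 symbols in the deposited table, found by symbol, each represented by the RefSeq transcript that averaged the most reads. All 9 were among the 7995 genes that averaged 10 reads or more. The cells were peritoneal macrophages elicited with thioglycollate in female C57BL/6 mice, and poly(A) RNA was taken after siRNA given for 48 hours against Smyd5, a methyltransferase of histone H4 lysine 20, or Phf2, a histone demethylase, or with a control siRNA. KLA, which the agent label ties to Kdo2-lipid A, followed for 4 hours at 100 ng per ml, and vehicle took its place in the other library of each siRNA. The libraries are called siCtl, siSmyd5 and siPhf2, each with vehicle or KLA, and each of the 6 groups was 1 library. The number of animals or cultures behind a library, the siRNA sequences and any check of the knockdown at the protein level are not stated in the labels, and siRNA lowers a transcript only in part and for a time.

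Schlafen proteins take their name from the German word for sleeping, after the slowed growth of thymocytes that overexpress the first members found. The short forms Slfn1 and Slfn2 and the intermediate form Slfn4 lack the helicase-like region of the long forms Slfn5 and Slfn8. PARP9, PARP10, PARP12 and PARP14 belong to the ADP-ribosyltransferase family, of which PARP1, PARP2 and the tankyrases build chains of ADP-ribose, whereas PARP10, PARP12 and PARP14 attach a single ADP-ribose. Many members of both families are interferon-stimulated genes: TLR4 signalling through TRIF and IRF3 induces interferon beta, whose receptor signals to STAT2 and IRF9, and these act at the interferon-stimulated response element, or ISRE.

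The start regions of the Schlafen genes are shown because this family sits in a single cluster and its members differ in the motifs held there. RefSeq promoter windows of 300 bases (250 before the annotated start and 50 after it, build GRCm38.p6) were matched for 6 of the 9 genes, the 5 Schlafen genes and Parp12; Parp9, Parp10 and Parp14 had no entry. For Slfn8, with 2 windows, the one with the start farthest 5′ was used. The windows lie on chromosome 11 at chr11:82951852-82952151 (Slfn5, plus strand), chr11:83020761-83021060 (Slfn8, minus strand), chr11:83064862-83065161 (Slfn2, plus), chr11:83116570-83116869 (Slfn1, plus) and chr11:83174936-83175235 (Slfn4, plus). They are printed 5′ to 3′ on the strand of the gene, with the ISRE, the ETS-IRF composite and a word shared by 3 of the genes in capitals.
Slfn5: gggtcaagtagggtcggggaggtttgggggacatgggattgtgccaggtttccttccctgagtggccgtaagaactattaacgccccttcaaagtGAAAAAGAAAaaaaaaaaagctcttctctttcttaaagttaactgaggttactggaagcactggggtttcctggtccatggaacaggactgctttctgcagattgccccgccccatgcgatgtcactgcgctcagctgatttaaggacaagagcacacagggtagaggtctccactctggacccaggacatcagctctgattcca
Slfn8: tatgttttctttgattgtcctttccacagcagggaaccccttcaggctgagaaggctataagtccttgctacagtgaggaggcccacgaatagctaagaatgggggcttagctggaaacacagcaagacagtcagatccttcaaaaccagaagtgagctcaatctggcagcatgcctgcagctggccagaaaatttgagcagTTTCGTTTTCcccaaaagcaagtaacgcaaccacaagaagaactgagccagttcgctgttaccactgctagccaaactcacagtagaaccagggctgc
Slfn2: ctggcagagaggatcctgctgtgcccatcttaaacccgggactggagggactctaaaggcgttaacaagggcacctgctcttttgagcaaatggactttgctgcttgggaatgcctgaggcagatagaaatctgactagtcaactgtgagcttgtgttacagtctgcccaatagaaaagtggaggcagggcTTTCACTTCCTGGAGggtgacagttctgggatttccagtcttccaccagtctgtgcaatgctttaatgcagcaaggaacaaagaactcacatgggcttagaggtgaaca
Slfn1: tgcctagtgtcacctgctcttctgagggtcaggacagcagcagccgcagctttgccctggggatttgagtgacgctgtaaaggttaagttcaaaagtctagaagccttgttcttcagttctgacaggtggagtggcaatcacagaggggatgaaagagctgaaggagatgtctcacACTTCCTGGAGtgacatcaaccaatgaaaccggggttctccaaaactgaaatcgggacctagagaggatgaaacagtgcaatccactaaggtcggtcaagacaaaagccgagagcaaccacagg
Slfn4: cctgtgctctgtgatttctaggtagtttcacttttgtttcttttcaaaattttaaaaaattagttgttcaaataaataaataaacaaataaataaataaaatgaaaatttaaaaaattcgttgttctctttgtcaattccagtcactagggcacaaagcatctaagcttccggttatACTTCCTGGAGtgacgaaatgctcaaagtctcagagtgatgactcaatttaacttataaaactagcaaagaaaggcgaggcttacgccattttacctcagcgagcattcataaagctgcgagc

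Each motif was searched on both strands. The ISRE, written as GAAA, any 2 bases and GAAA, stood in the windows of Slfn5 (positions -155 to -146 from the start, as GAAAAAGAAA) and Slfn8 (-48 to -39, as TTTCGTTTTC). It was in 3.44% of all 32851 promoter windows of the same length. The ETS-IRF composite (GGAA, any 2 bases, GAAA), at which PU.1, the lineage factor of macrophages, binds with IRF4 or IRF8, stood in Slfn2 as TTTCACTTCC (-59 to -50) and in 2.72% of all windows. Slfn1, Slfn2 and Slfn4 shared the 11-base word ACTTCCTGGAG at -74 to -64, -55 to -45 and -73 to -63, which overlaps the composite in Slfn2. That word was found by searching these same windows for words common to at least 3 of them, so its presence is a description of them; 24 of all windows (0.0731%) held it. The AP-1 letters TGANTCA stood in Slfn4 (-34 to -28, not capitalised; 7.81% of all windows). The gamma-activated site TTCNNNGAA (8.30% of all windows) and the NF-kappaB motif (GGGA, any 2 bases, TTCC; 1.47%) were in none of the 6 windows, and Parp12 held none of these motifs. The NF-kappaB pattern searched has a fixed spacer of 2 bases, so a shorter form such as GGGATTTCC, present in the Slfn2 window, was not counted. A match here is a description of letters within 300 bases, not a site of binding.

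The libraries held 420141 to 1429520 reads over genes, and the ribosomal RNA precursor Rn45s took 66.7% and 71.6% of the siPhf2 vehicle and KLA libraries against at most 1.20% of the other 4, which leaves 192421 and 119136 reads in those of siPhf2 and at least 910904 elsewhere. The target Smyd5 had 44 and 29 reads (vehicle, KLA) with siCtl, 9 and 20 with siSmyd5 and 3 and 0 with siPhf2, and Phf2 had 113 and 120, 52 and 34, and 29 and 8. After TMM scaling Smyd5 stood at 0.329 of its siCtl level (95% counting interval 0.141 to 0.683) in the siSmyd5 vehicle library and at 1.10 (0.592 to 2.02) in the siSmyd5 KLA library, so that no lowering of the target was detectable with KLA, and its averaged value did not pass (-0.64 ± 0.42, edgeR adjusted p = 0.384). Phf2 was 2.55-fold higher (95% counting interval 1.63 to 3.86) in the vehicle library labelled siPhf2 than in that labelled siCtl. In the siSmyd5 libraries, where it was not the target, Phf2 stood at 0.740 (0.522 to 1.04) of siCtl with vehicle. With KLA it stood at 0.453 (0.300 to 0.668) there. The siCtl columns gave whole reads only with the totals printed for siPhf2, and the reverse, so either the names or the totals of these 4 columns were exchanged, and siCtl and siPhf2 are used below only as the column names. All 9 macrophage markers present in the table were detected in every library (3995 to 5708 RPM in sum, where RPM stands for reads per 1000000 of the TMM-scaled library size), T cell, B cell, NK cell, neutrophil, eosinophil, mast cell and dendritic cell lists each summed to 0 to 29.3, and mesothelial and fibroblast markers to 374 to 953. Intervals throughout are exact Poisson 95% intervals and cover counting error only, because no molecular identifiers are described and PCR reads are not independent molecules.

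In resting siCtl macrophages the members spanned a wide range of levels. The column names carry the term cds, while the length used here is that of the mRNA. If reads were counted over coding sequence only, the order of genes per kilobase could differ from the one given. In RPM per kilobase of transcript, Slfn2 stood first at 97.9 (counting interval 88.4 to 108), Slfn5 followed at 30.7 (27.9 to 33.7), and Parp12 (12.8), Parp10 (10.7), Parp9 (10.3), Parp14 (9.86) and Slfn8 (8.34) lay close together. The intervals of neighbours from Parp12 to Slfn8 overlapped, so their order is not resolved at this depth. Slfn1 at 2.02 (0.926 to 3.84, 9 reads) and Slfn4 at 2.007 (1.21 to 3.13, 19 reads) were the lowest and could not be ordered either. Under KLA, Slfn2 again stood first in the siCtl library at 676 (650 to 703) per kilobase, followed by Parp14 at 119 (114 to 125), Slfn8 at 88.2 (82.1 to 94.6) and Slfn5 at 72.8 (68.3 to 77.6), whose intervals do not overlap. Parp9 (43.5) and Parp12 (37.4) had overlapping intervals, as had Parp12 and Slfn1 (31.6), while Parp10 (14.7) and Slfn4 (4.91, 3.55 to 6.61) were lowest. In the siSmyd5 KLA library Slfn8, at 137 (128 to 148), stood above Parp14, at 118 (111 to 124.5).

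**Figure D1:**
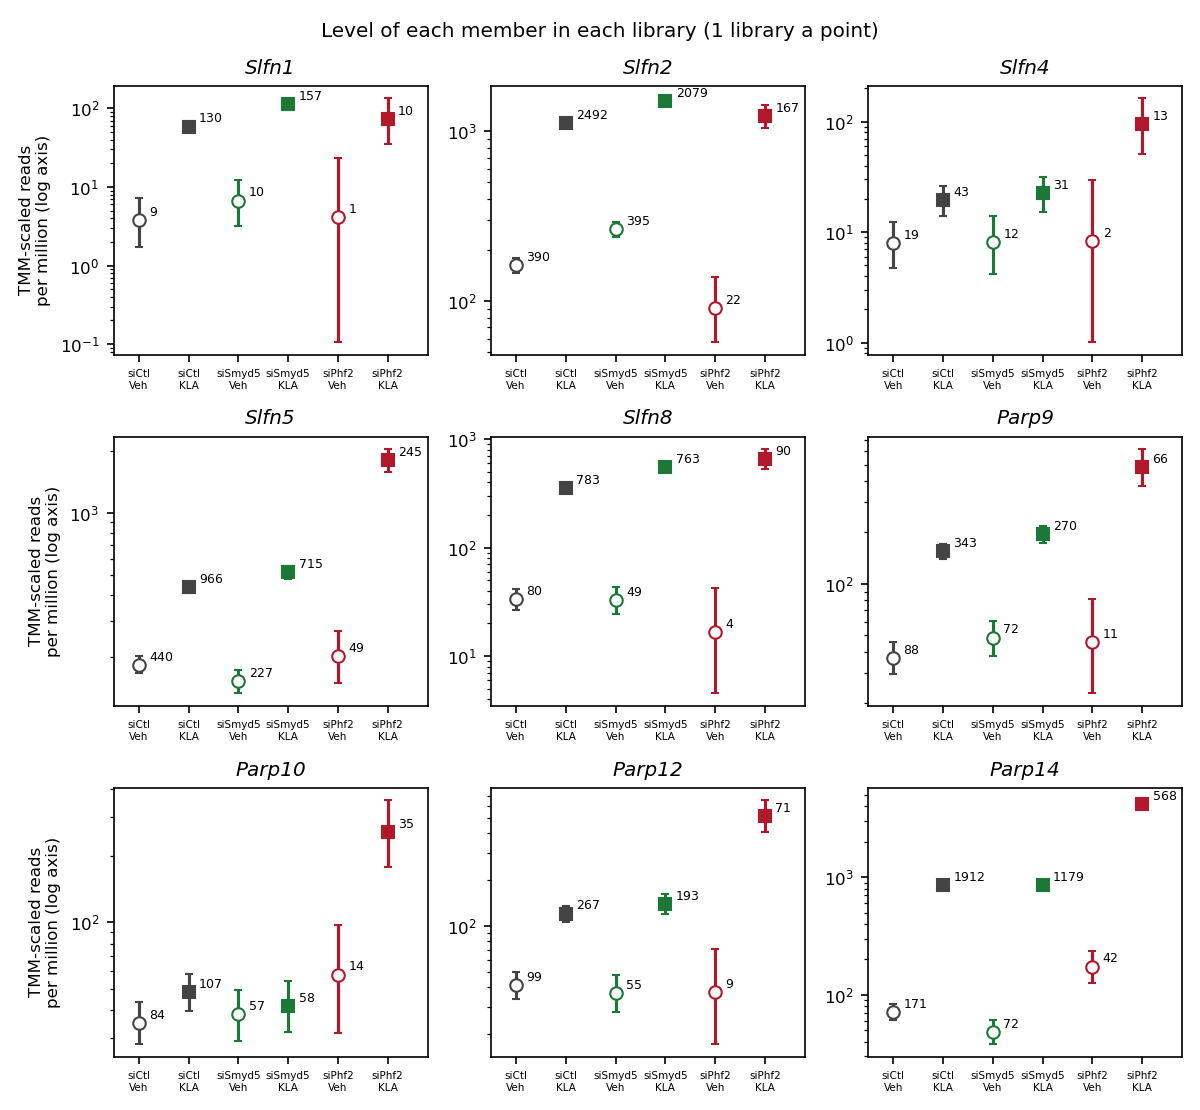
Level of each of the 9 genes in each of the 6 libraries, in RPM on a log axis; each point is 1 library, its bar the exact 95% counting interval, and libraries are ordered by siRNA label with vehicle before KLA. Every gene lies higher with KLA than with vehicle under each siRNA label, by the least for Parp10 in the siSmyd5 pair (38.3 and 41.8).

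Both families rose with KLA, Parp10 being the exception. In the fit averaged over the siRNA labels, 8 of the 9 genes rose (edgeR quasi-likelihood, adjusted p below 0.05 over all 7995 genes), all 5 Schlafen genes and 3 of the 4 PARP genes, and none fell. Of all genes tested, 11.1% rose and 4.57% fell. The 9 genes had a median log2 fold change of 2.27, against -0.03 over all genes. With 2 residual degrees of freedom, a KLA response that differed between the siRNA labels counts as noise in this fit.

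The short Schlafen forms Slfn1 and Slfn2 were among the members that rose most. Slfn1 (NM_011407, mm9 chr11:82930347-82936161) stood at 3.76, 6.71 and 4.14 RPM in the siCtl, siSmyd5 and siPhf2 vehicle libraries and at 58.6, 113 and 73.3 in the KLA libraries. The 3 vehicle libraries lay below all KLA libraries, though the siPhf2 values rest on 1 and 10 reads. Its averaged log2 fold change was 4.00 ± 0.28 (SE; edgeR adjusted p = 2.99e-09). With 9, 10 and 1 vehicle reads, Slfn1 cleared the 10-read filter through its KLA reads, and with no filter the value was 4.04. Slfn2 (NM_011408, chr11:82878614-82884180), which is known for keeping T cells quiescent, stood at 163, 265 and 91.0 with vehicle and at 1124, 1500 and 1224 with KLA. The KLA libraries again lay above every vehicle library, and the rise was 2.89 ± 0.22 (edgeR adjusted p = 1.04e-08).

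Slfn4, the intermediate form, which is induced during macrophage activation, was per kilobase the least abundant member in the siCtl KLA library and rose less. Slfn4 (NM_011410, chr11:82988688-83003718) stood at 7.93, 8.05 and 8.28 in the vehicle libraries of siCtl, siSmyd5 and siPhf2 and at 19.4, 22.4 and 95.3 with KLA, from 2 to 43 reads a library. The siPhf2 KLA library stood apart from the other KLA libraries, with 13 reads. The averaged rise was 1.62 ± 0.35 (edgeR adjusted p = 0.00247), a call that was lost without the siSmyd5 KLA library (adjusted p = 0.0968, over a range of 1.49e-05 to 0.198 across its alternatives). Of the 30-base windows of the annotated Slfn4 transcript (GENCODE M21), 21.8% also occur in transcripts of other genes, mostly Slfn3, so reads could be split between these copies.

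The long forms differed in how far they rose. Slfn5 (NM_183201, chr11:82765604-82778352), a nuclear protein of the interferon response, stood at 184, 152 and 203 with vehicle and 436, 516 and 1795 with KLA, a rise of 1.95 ± 0.26 (edgeR adjusted p = 1.7e-05). Slfn8 (NM_181545, chr11:82815660-82834312) stood at 33.4, 32.9 and 16.6 with vehicle and 353, 551 and 659 with KLA, a rise of 3.91 ± 0.26 (edgeR adjusted p = 1.06e-09). For both genes the KLA libraries lay above all vehicle libraries. Of its 30-base windows Slfn8 shares 20.2% with Slfn9, and Slfn5 shares 8.52% with the antisense gene Slfn5os, whose reads cannot be told apart without strand. The second listed transcript of Slfn8, NM_001167743, had 39 and 379, 20 and 321, and 1 and 55 reads (vehicle, KLA) under siCtl, siSmyd5 and siPhf2, fewer than the first in every library and higher with KLA in each.

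Parp14 had the highest estimate of the 9 genes, within its standard error of those of Slfn1 and Slfn8. Parp14 (NM_001039530, mm9 chr16:35832964-35871468), a macrodomain protein described as a coactivator of STAT6, stood at 71.4, 48.3 and 174 RPM in the vehicle libraries of siCtl, siSmyd5 and siPhf2 and at 862, 851 and 4162 with KLA. The siPhf2 libraries were the highest under each agent, and KLA lay above vehicle throughout. Its averaged log2 fold change was 4.06 ± 0.23 (SE; edgeR adjusted p = 9.39e-11). Parp9 (NM_030253, chr16:35938556-35972707), which binds the ubiquitin ligase DTX3L, stood at 36.7, 48.3 and 45.5 with vehicle and 155, 195 and 484 with KLA, a rise of 2.27 ± 0.22 (edgeR adjusted p = 2.75e-07). Dtx3l itself stood at 23.8, 20.8 and 29.0 with vehicle and 224, 310 and 733 with KLA and rose by 3.72 ± 0.24 (edgeR adjusted p = 9.66e-10). Parp9 and Dtx3l lie head to head on opposite strands and overlap by 557 bases, so reads in the overlap cannot be assigned to either.

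Parp12 and Parp10 had the smaller values of the PARP genes. Parp12 (NM_172893, mm9 chr6:39036411-39068348), a zinc-finger protein with antiviral activity, stood at 41.3, 36.9 and 37.2 with vehicle and 120, 139 and 520 with KLA, and rose by 2.05 ± 0.25 on the log2 scale (edgeR adjusted p = 6.06e-06). Parp10 (NM_001163575, chr15:76063425-76073870), first described as a partner of Myc, stood at 35.1, 38.3 and 57.9 with vehicle and 48.3, 41.8 and 256 with KLA. Its KLA libraries of siCtl and siSmyd5 lay below the siPhf2 vehicle library, so the agents overlapped. Its log2 fold change of 0.65 ± 0.26 did not pass (edgeR adjusted p = 0.109); it passed only with no filter on low reads, where adjusted p was 0.0275, within a range of 0.0275 to 0.466.

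The count of 8 was 7 to 8 when any 1 library was left out and 8 without both siPhf2 libraries, an alternative chosen after seeing the data. The number of all genes passing also moved as libraries were left out, and without both siPhf2 libraries it was 2110 in place of 1256. With limma on log2 values and 10 added, 5 members passed among 243 of all 7995 genes. There Slfn4, Slfn5 and Parp12 missed the threshold (limma adjusted p = 0.198, 0.085 and 0.0973, each the highest of its alternatives).

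**Figure D2:**
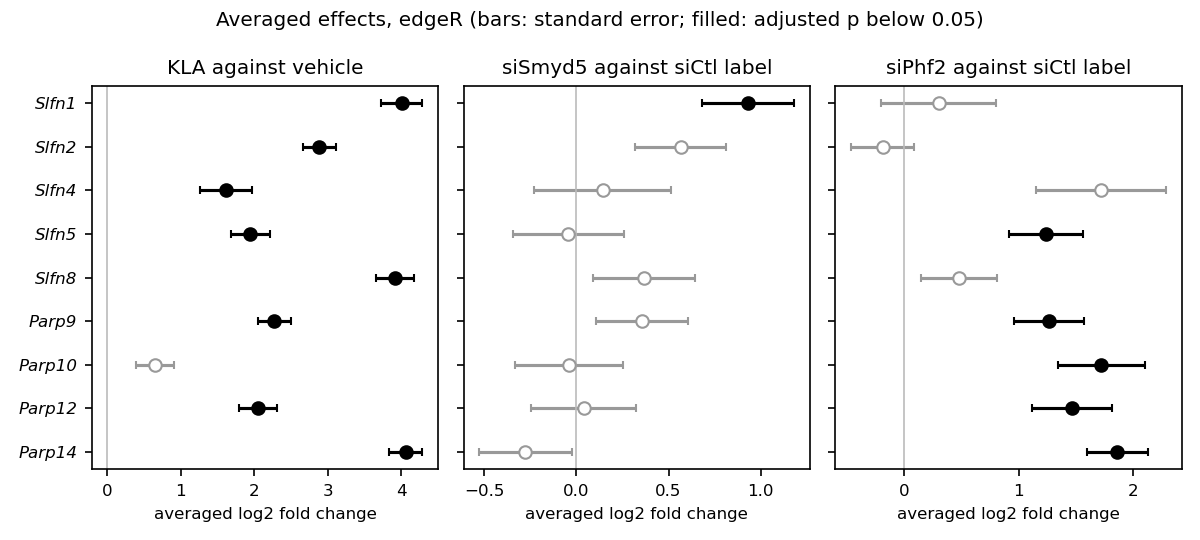
Averaged log2 fold changes of the 9 genes for KLA against vehicle and for the siSmyd5 and siPhf2 labels against siCtl (x axes), with standard errors as bars; filled points passed an edgeR adjusted p of 0.05. With KLA 8 points are filled, all above 0, against 1 for siSmyd5 (Slfn1) and 5 for siPhf2.

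Within each siRNA label, 1 KLA library was set against 1 vehicle library, which gives a ratio and a counting interval but no test. A call by size, higher or lower, needed a log2 ratio (2 reads added to each side) of at least 1 in either direction and an interval without equality. Under siCtl 8 of the 9 members were called higher (6.92% of all genes), under siSmyd5 8 (8.68%) and under siPhf2 9 (8.36%), and none was called lower (2.4%, 3.48% and 6.97% of all genes). Parp10 was the member not called under siCtl (1.38-fold, 1.03 to 1.85) and under siSmyd5 (1.09-fold, 0.746 to 1.61), while under siPhf2 it was 4.43-fold higher with KLA (2.32 to 8.91).

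For several members the KLA ratio was larger under the siPhf2 label than under the other labels. Slfn5 was 2.37-fold higher with KLA under siCtl (2.12 to 2.66), 3.39-fold under siSmyd5 (2.91 to 3.95) and 8.85-fold under siPhf2 (6.49 to 12.3), 3 intervals that do not overlap. Parp12 gave 2.92-fold (2.31 to 3.71), 3.77-fold (2.78 to 5.19) and 14.0-fold (6.96 to 31.8), and Parp9 gave 4.21-fold (3.32 to 5.39), 4.03-fold (3.1 to 5.3) and 10.6-fold (5.57 to 22.3). For both, the siPhf2 interval lay above the other intervals, which overlapped each other. Parp14 gave 12.1-fold (10.3 to 14.2), 17.6-fold (13.9 to 22.7) and 23.9-fold (17.5 to 33.6). Each of these intervals overlapped the next, and those of siCtl and siPhf2 did not overlap.

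Of the short Schlafen forms, Slfn1 had too few reads under siPhf2 to show whether its KLA ratio was larger there. Slfn1 gave KLA to vehicle ratios of 15.6 (7.98 to 34.9) under siCtl, 16.9 (8.94 to 35.9) under siSmyd5 and 17.7 (2.52 to 768) under siPhf2, and the last rests on 1 vehicle read. For Slfn2 these ratios were 6.91 (6.21 to 7.7), 5.66 (5.08 to 6.32) and 13.4 (8.59 to 22.03), with the siPhf2 interval above the others. Slfn8 gave 10.6-fold (8.4 to 13.5), 16.7-fold (12.5 to 22.8) and 39.8-fold (15.0 to 149), and Slfn4 gave 2.45-fold (1.4 to 4.44), 2.78-fold (1.39 to 5.94) and 11.5-fold (2.61 to 105). Their siPhf2 intervals are wide because the vehicle library held 4 and 2 reads. Whether the KLA response differed between labels could not be tested with 1 library a group, and the share of Rn45s reads moves with the siPhf2 label; its part in these ratios was not tested.

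**Figure D3:**
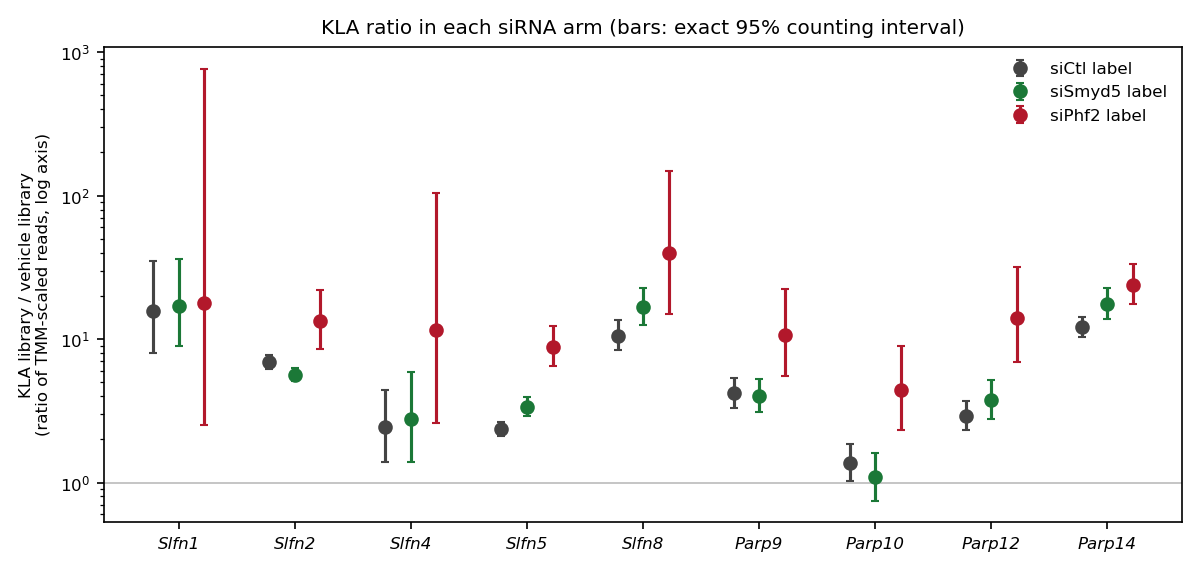
Ratio of the KLA library to the vehicle library for each of the 9 genes (log axis, TMM-scaled reads, no reads added), with 1 point for each siRNA label and the exact 95% counting interval as its bar. The siPhf2 point is the highest for every gene, from 4.43 for Parp10 to 39.8 for Slfn8, with the widest intervals.

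With the siSmyd5 label, set against siCtl, Slfn1 was the single member to pass the averaged test, at a log2 fold change of 0.93 ± 0.25 (edgeR adjusted p = 0.0354). Of all genes tested, 2.71% were higher and 3.58% lower, and nothing is read from 1 call among 9 genes. Slfn2 was at 0.57 ± 0.25 (edgeR adjusted p = 0.172), Slfn8 at 0.37 ± 0.28 (0.453) and Parp9 at 0.36 ± 0.25 (0.413), and Parp14 was the lowest at -0.28 ± 0.25 (0.543). The members' median was 0.14.

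In the single contrasts of the libraries labelled siSmyd5 against siCtl, where a lowering of Smyd5 was detectable with vehicle only, no member was called by size, with vehicle (2.4% of all genes called higher and 5.02% lower) or with KLA (1.73% and 3.64%). The siSmyd5 to siCtl ratio of Slfn1 was 1.79 (0.653 to 4.97, 10 against 9 reads) with vehicle and 1.93 (1.52 to 2.46) with KLA. Slfn2 gave 1.63 (1.41 to 1.88) and 1.33 (1.26 to 1.42), intervals above equality under both agents, and Slfn8 gave 0.985 (0.676 to 1.42) and 1.56 (1.41 to 1.72). Of the PARP genes, Parp14 was at 0.677 (0.507 to 0.897) with vehicle and 0.986 (0.917 to 1.06) with KLA, and Parp9 at 1.32 (0.95 to 1.82) and 1.26 (1.07 to 1.48). Read ratios of this label moved with transcript length: over the 400 genes nearest in length the median log2 ratio with KLA was 0.16 for Slfn1 and -0.40 for Parp14, and subtracting it gave 0.77 and 0.38.

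The Slfn1 call held in 5 of 15 alternatives, and the Slfn1 adjusted p ran from 0.000472 to 1. No member passed without the siCtl vehicle, siCtl KLA, siSmyd5 vehicle or siSmyd5 KLA library (at an unadjusted edgeR p under 0.05, 1 without the last and 0 without each of the others), where 1, 1, 5 and 2 of all 7995 genes passed. Among the members 4 passed without the siPhf2 vehicle library and 3 without the siPhf2 KLA library, among 2196 and 2189 of all genes. With both siPhf2 libraries left out 3 passed, Slfn1, Slfn2 (edgeR adjusted p = 0.000105) and Slfn8 (0.00259), all higher, among 2194 of all genes, and nothing is read from these counts. If the columns named siPhf2 are in fact the controls, 5 members passed among 2021 of all genes, all lower: Slfn5, Parp9, Parp10, Parp12 and Parp14, from -0.91 for Parp9 to -2.14 for Parp14. Under the printed names Parp9 and Parp12 lay above 0 and the other 3 below it. Slfn1 and Slfn2 were higher under either naming, at 0.63 and 0.76 with the names exchanged, without passing.

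With the siPhf2 label, set against the same siCtl libraries, the 4 PARP genes were higher and the Schlafen genes divided. In the averaged fit 5 of the 9 genes were higher and none lower, against 8.08% and 4.43% of all genes tested. They were Parp14 (log2 fold change 1.86 ± 0.26, edgeR adjusted p = 9.18e-05), Parp10 (1.72 ± 0.38, adjusted p = 0.00532), Parp12 (1.47 ± 0.35, adjusted p = 0.0085), Parp9 (1.26 ± 0.30, adjusted p = 0.00956) and Slfn5 (1.24 ± 0.33, adjusted p = 0.0168). Slfn4 (1.72 ± 0.57, adjusted p = 0.0533), Slfn8 (0.48 ± 0.33, adjusted p = 0.372), Slfn1 (0.30 ± 0.50, adjusted p = 0.743) and Slfn2 (-0.19 ± 0.28, adjusted p = 0.698) did not pass. The members' median was 1.26 and that of all genes -0.13. If the names of the columns were exchanged, each of these values turns its sign, and the level of Phf2 goes against the label in the vehicle libraries.

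Under each agent, 1 siPhf2 library was then set against 1 siCtl library. With vehicle, Parp14 alone was called higher by size at 2.44-fold (1.69 to 3.43), against 10.8% of all genes higher and 8.86% lower. With KLA 6 members were called higher (7.89% of all genes) and none lower (7.28%): Parp10 at 5.31-fold (3.52 to 7.85), Slfn4 at 4.91-fold (2.42 to 9.31), Parp14 at 4.83-fold (4.39 to 5.3), Parp12 at 4.32-fold (3.28 to 5.63), Slfn5 at 4.12-fold (3.57 to 4.75) and Parp9 at 3.13-fold (2.36 to 4.08). Slfn8 at 1.87-fold (1.48 to 2.33), Slfn1 at 1.25-fold (0.585 to 2.37) and Slfn2 at 1.09-fold (0.925 to 1.27) were not called. The interval of Slfn2 covers counting error only, and its ratio moved with the length correction and the scalings given below. With vehicle the siPhf2 to siCtl ratio of Slfn2 was 0.559 (0.347 to 0.859).

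Transcript length moved with these ratios as well. With KLA the 400 genes nearest in length had a median log2 ratio of -0.61 for Slfn1 and -0.66 for Slfn2, the shortest members, against -0.18 for Slfn8 and 0.18 for Parp14. Subtracting it gave 0.92 for Slfn1, 0.79 for Slfn2, 1.07 for Slfn8 and 2.09 for Parp14, so that 7 members were called higher by size under KLA. With vehicle none was called, Parp14 being at 0.68 and Slfn8 at -1.003 with a counting interval (0.132 to 1.32 as a ratio before the subtraction) that includes equality. The summed mesothelial and fibroblast markers were 521 and 374 RPM (vehicle, KLA) in the siPhf2 libraries against 914 and 953 with siCtl. That sum rests on Col1a1, Col1a2, Col3a1, Dcn and Pdgfra, as the mesothelial genes Msln, Upk3b and Krt19 had at most 4 reads in any library. Neutrophil markers, of a cell type that can express Slfn4, were at 20.7 RPM (5 reads) with vehicle and had no read with KLA under siPhf2. Under siCtl they were at 15.4 (37 reads) and 8.57 (19 reads). Most of the siCtl sum was S100a8, with 25 and 18 reads there and 3 and 0 under siPhf2 (vehicle, KLA). These counts are too low to order the neutrophil levels. Of the macrophage markers, Csf1r (1.37 ± 0.24, edgeR adjusted p = 0.000846) and Mertk (1.60 ± 0.24, adjusted p = 0.000207) were higher in the averaged siPhf2 fit. Fcgr1 was lower (-1.18 ± 0.37, edgeR adjusted p = 0.0432), and the rest did not pass. The part of length, of Rn45s and of cell makeup in these ratios was not tested, and in bulk RNA fewer cells of a type cannot be told apart from less RNA per cell.

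The direction of the siPhf2 values also rests on the scaling. TMM sets the median of all genes near 0 (-0.13), scaling to all reads without Rn45s sets it at -0.60 and scaling to all reads at -2.26, with 2 members higher and 0 lower, and 0 higher and 6 lower, respectively, in place of 5 and 0. Of all 7995 genes 1709 and 7386 passed under these scalings in place of 1000. Relative to the median of all genes Parp14 stood 1.99, 2.00 and 1.93 above it under the 3 scalings, Parp10 1.85, 1.85 and 1.81, Slfn5 1.37, 1.37 and 1.30, and Slfn2 stood at -0.06, -0.06 and -0.13. A change of scaling shifts all genes almost alike, and subtracting the median takes that shift out. These values therefore nearly agree by construction. They place the members among all genes and do not show that the siPhf2 values hold whatever the scaling. Leaving out 1 library gave 0 members passing without siCtl KLA (2 at an unadjusted edgeR p under 0.05), 2 without siSmyd5 KLA, 3 without siSmyd5 vehicle, 4 without siCtl vehicle and 7 without siPhf2 vehicle, among 210, 411, 548, 218 and 956 of all genes. Without siPhf2 KLA 2 passed among 1449, Parp14 higher and Slfn2 lower, and the values of Slfn5 (0.27), Parp9 (0.29), Parp10 (0.65) and Slfn4 (0.11) were the lowest of their leave-one-out ranges, which reached 1.94, 1.65, 2.47 and 2.27 without siPhf2 vehicle. The siSmyd5 and siPhf2 contrasts share the siCtl libraries, so values of the same gene in both are not independent.

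**Figure D4:**
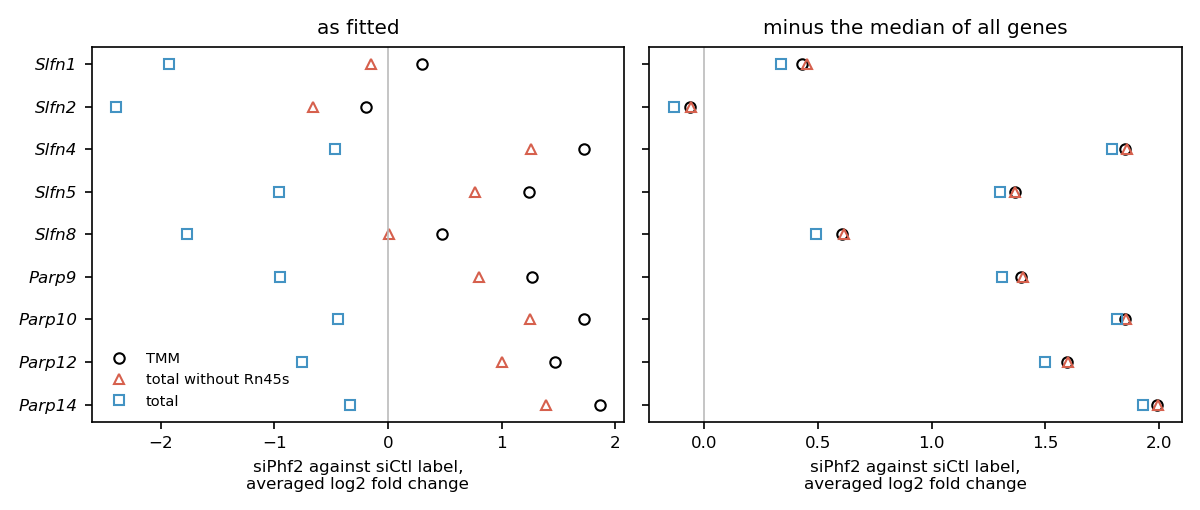
Averaged log2 fold change of the 9 genes for the siPhf2 label against siCtl (x axis) under 3 scalings (circles TMM, triangles all reads without Rn45s, squares all reads), as fitted on the left and minus the median of all genes on the right. On the left the symbols of a gene lie far apart, Parp14 at 1.86, 1.39 and -0.33. On the right the symbols nearly coincide, at 1.99, 2.00 and 1.93, because subtracting the median takes out the shift made by the scaling.

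The Schlafen members lie in 1 stretch of chromosome 11 with Slfn3, Slfn9 and Slfn10-ps, and Parp14, Dtx3l and Parp9 lie in 1 stretch of chromosome 16. Of the other genes within 100000 bases of a Schlafen member 5 were tested, and 3 rose with KLA in the averaged edgeR fit: Slfn9 (log2 fold change 3.81 ± 0.40, adjusted p = 5.9e-07), Slfn3 (2.00 ± 0.40, adjusted p = 0.00116) and the ubiquitin ligase gene Rffl (2.00). Slfn10-ps, listed as a pseudogene, was at -0.31 ± 0.35 (adjusted p = 0.65), and AI662270 at 0.05. Slfn9 had 8 and 62 reads (vehicle, KLA) with siCtl, 2 and 53 with siSmyd5 and 1 and 20 with siPhf2. In the same order Slfn3 had 14 and 37, 5 and 31, and 1 and 4. Both cleared the filter of 10 reads through their KLA reads. Around Parp14 and Parp9, Dtx3l rose and the other 3 neighbours tested did not pass, from 0.02 for Fam162a to 0.21 for Kpna1. Beside Parp10 1 of 4 rose (Plec, 0.69) and beside Parp12 1 of 2 (Jhdm1d, 1.18). The share over all genes was 11.1%, and nothing is read from counts over so few neighbours.

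Of 11 other PARP and tankyrase genes tested, 3 rose and none fell: Parp8 (log2 fold change 2.15 ± 0.30, edgeR adjusted p = 2.53e-05), Zc3hav1, the antiviral zinc-finger protein ZAP (1.26 ± 0.19, adjusted p = 7.32e-05), and Tiparp, a target of the aryl hydrocarbon receptor (0.84 ± 0.21, adjusted p = 0.00708). Zc3hav1 had 553 and 1065 reads (vehicle, KLA) with siCtl, 312 and 688 with siSmyd5 and 58 and 98 with siPhf2. Parp1, the main chain-building enzyme of DNA repair, was at -0.52 ± 0.24 (adjusted p = 0.177), and the list's median was 0.28. With siSmyd5 Tnks was lower (-0.95 ± 0.24, edgeR adjusted p = 0.0283), and with siPhf2 Parp4 (1.42 ± 0.26, adjusted p = 0.00138) and Tnks (1.03 ± 0.31, adjusted p = 0.0326) were higher. Beside 11.1% of all genes higher with KLA, 3.58% lower with siSmyd5 and 8.08% higher with siPhf2, nothing is read from these counts.

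Partners and removers of ADP-ribose, 7 tested, had 2 that rose with KLA, Dtx3l and H2afy, a histone with an ADP-ribose-binding macrodomain (0.61 ± 0.19, edgeR adjusted p = 0.0366), and none that fell. The hydrolase genes Parg (0.17) and Adprh (0.04) did not pass. NAD is the substrate of ADP-ribosylation, and of 5 genes of its supply and use tested 2 rose: Nampt, the salvage enzyme (1.15 ± 0.20, adjusted p = 0.000238), with 448 and 877, 364 and 747, and 27 and 38 reads (vehicle, KLA) under siCtl, siSmyd5 and siPhf2, and Cd38, an NAD-consuming enzyme (1.42 ± 0.33, adjusted p = 0.00479). With siPhf2 Bst1, another NAD-consuming enzyme, was lower (-1.80 ± 0.52, edgeR adjusted p = 0.0286). Beside 11.1% of all genes higher with KLA and 4.43% lower with siPhf2, nothing is read from the counts of both lists.

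Genes of the interferon pathway itself rose with KLA in 10 of 17 tested and none fell, against 11.1% and 4.57% of all genes. The list's median was 1.12, against -0.03 over all genes. The ligand gene Ifnb1 had 0 and 14 reads (vehicle, KLA) with siCtl, 0 and 19 with siSmyd5 and 0 and 1 with siPhf2, below the filter, and Ifna1, Ifna2 and Ifna4 had no read. Of the receptors and kinases Ifnar1 (1.12 ± 0.21, edgeR adjusted p = 0.000745), Ifngr1 (1.15 ± 0.20, adjusted p = 0.00024) and Jak2 (2.38 ± 0.22, adjusted p = 1.16e-07) rose. Among the factors that act at the ISRE, Irf1 (4.01 ± 0.23, adjusted p = 1.34e-10), Stat2 (2.50 ± 0.25, adjusted p = 3.91e-07) and Irf9 (1.49 ± 0.29, adjusted p = 0.000903) rose, as did Irf2 (1.07 ± 0.31, edgeR adjusted p = 0.021). Irf7, with 576 and 536, 312 and 396, and 2 and 51 reads, did not pass (0.79 ± 0.39, adjusted p = 0.205). The feedback inhibitors Socs1 (2.84 ± 0.54, edgeR adjusted p = 0.000805) and Usp18 (2.65 ± 0.30, adjusted p = 1.82e-06) rose too. Socs1 had 11, 0 and 0 vehicle reads under siCtl, siSmyd5 and siPhf2 and cleared the filter through its KLA reads. With siPhf2 2 of the 17 were higher, Stat2 (1.95 ± 0.32, edgeR adjusted p = 0.000519) and Tyk2 (1.44 ± 0.31, adjusted p = 0.00471), and none lower. Of all genes tested, 8.08% were higher and 4.43% lower. In the single siPhf2 to siCtl contrast with vehicle, 1 of the 17 was called higher by size and 4 lower (10.8% and 8.86% of all genes). The list's median was -0.56. Under KLA 6 were called higher and none lower (7.89% and 7.28%), with a median of 0.63.

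Among 3604 other genes averaging 50 reads or more, those whose centred log2 levels over the 6 libraries lay nearest to the median Schlafen profile were Gbp2 (Euclidean distance 0.49), Igtp (0.60) and Ifi203 (0.63). For the PARP genes they were Ddx58 (0.38), which encodes the RNA sensor RIG-I, Tor3a (0.44) and Mndal (0.65). Igtp and Gbp2 encode interferon-inducible GTPases. Within the families, Parp9 (0.31) and Parp12 (0.33) lay nearest to their own median profile and Parp14 (2.47) farthest, and of the Schlafen genes Slfn2 (1.03) and Slfn1 (1.07) lay nearest and Slfn4 (2.16) farthest. Each median was taken from these same members, so a small distance of a member to it is partly built in. The 6 libraries differ in depth and in Rn45s share, which all these profiles have in common.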

How the data were processed

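Poly(A) RNA of 6 libraries, 1 for each siRNA and agent, was fragmented, tailed, reverse transcribed with barcoded primers and, after PCR, read on a Genome Analyzer 2, per the labels' protocols. The authors deposited a signal, in which reads of each RefSeq transcript are scaled to 10000000 tags, per the file headers. The submitters' processing notes name HOMER and mm9, a mouse build, without role. The aligner, the strand setting and the handling of multiply matching reads were not given in the sources used here. Sample titles gave the groups, and column names matched them.

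Whole reads were recovered by dividing each value by the worth of 1 read and called whole within 0.02. All values came out whole (100%), those of the siSmyd5 columns with their own header totals, those of siCtl with the totals printed for siPhf2 and the reverse. The values were kept under the column names. Since the deposited unit is a scaled signal, the count model is a departure from the usual test for such values, and limma on log2 values with 10 or 50 added was run beside it. An additive model of siRNA and agent gave the averaged effects, in edgeR 4.0.16 (R 4.3.3; quasi-likelihood, TMM, 2-sided, Benjamini-Hochberg over 7995 genes averaging 10 reads or more, threshold 0.05), with 2 residual degrees of freedom. The script was tested on simulated data. Libraries are not stated to be separate cultures or animals, so a p-value here covers only the spread of these libraries, which may be technical. Contrasts of 1 library with 1 carry no p-value and compare libraries, not conditions. Alternatives were 2 other scalings, a minimum of 50 reads or none, each library left out, limma 3.58.1, limma-voom, DESeq2 1.42.0, exchanged column names, a length correction and the second transcript. The 2 transcripts without a symbol (2.6e-05% of reads) were left out. Transcript coordinates are on mm9 as deposited, while promoter windows are from RefSeq on GRCm38.p6, and no coordinate was converted. Shares of 30-base windows were counted in GENCODE M21 transcripts.

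The 9 genes and the gene lists were chosen with earlier results of these data known. Beside the 9 genes, the text names up to 4 genes of each list (those passing the averaged KLA test with the largest change, then those with the most reads), a few genes that are always given (Dtx3l, Zc3hav1, Tiparp, Ifnb1, Stat2, Irf7, Irf9, Nampt, Smyd5, Phf2 and Rn45s), neighbours within 100000 bases and the 3 genes nearest in profile to each family. Others (Parp1, Parp4, Tnks, Parg, Adprh, Bst1, Tyk2, Ifnar1, Ifngr1, Irf2, Jak2, Csf1r, Mertk, Fcgr1) were named after their values were seen. The values of 1 gene of the interferon pathway list are not reported here.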

Additional observations from a re-analysis of the deposited data

Results flagged for a closer look

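Slfn5 lay on opposite sides of equality in the siSmyd5 to siCtl ratios of the 2 agents, at 0.830 (95% counting interval 0.704 to 0.976) with vehicle and at 1.18 (1.07 to 1.31) with KLA. This difference was not tested, since each ratio rests on 1 library against 1. After subtracting the median of the 400 genes nearest in length, the log2 ratios of Slfn5 were 0.05 and 0.52.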

How the results depend on the processing

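No paired analysis was possible because each group held 1 library, beyond the additive fit itself, in which the siRNA label serves as the block for KLA. Counts of the 9 members passing the averaged test were 8 for KLA, 1 for siSmyd5 and 5 for siPhf2, and they changed as follows; the cause was not tested. For KLA the count was 5 and 6 by limma with 10 and 50 added, 7 with a minimum mean of 50 reads (where Slfn4 was not tested), 9, Parp10 included, with no filter (14963 genes) and 7 to 8 with 1 library left out. For siSmyd5 it was 0 by scaling to all reads, with a minimum mean of 50 reads, by limma with 10 or 50 added, by limma-voom and by DESeq2 (which gave no adjusted p for 2 members, Slfn1 among them), and 0 to 4 with 1 library left out. For KLA 243 and 349 of all 7995 genes passed by limma with 10 and 50 added, in place of 1256. For siSmyd5 503 of all genes passed in the main test and 225 by scaling to all reads. With a minimum of 50 reads 95 of 3612 passed. By limma with 10 or 50 added 0 of all genes passed, by limma-voom 16 and by DESeq2 14. Nothing is read from 0 members where so few genes passed. At an unadjusted p under 0.05, siSmyd5 gave 2 members by the main edgeR test and by limma-voom, 1 by scaling to all reads or with a minimum of 50 reads, and 0 by DESeq2 and by limma with 10 or 50 added. The siSmyd5 count at adjusted p was 3 without both siPhf2 libraries and 5, all lower, with the siCtl and siPhf2 names exchanged. For siPhf2 it was 6, all lower, by scaling to all reads (7386 of all 7995 genes passed), 2 without Rn45s in the total (1709), 0 and 1 by limma with 10 and 50 added (where 2 members had an unadjusted p under 0.05 with either), 2 by DESeq2, and 0 to 7 with 1 library left out. For siPhf2 204 and 524 of all 7995 genes passed by limma with 10 and 50 added and 487 by DESeq2. Calls by size of siSmyd5 with the names exchanged were 2 with vehicle and 6 with KLA, without a count over all genes to set beside them. Those of siPhf2 with vehicle were 6 and 2, all lower, by scaling to all reads with and without Rn45s and 0 after the length correction, and with KLA 3, all lower, by scaling to all reads.

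Among single genes, averaged siSmyd5 values turned for Parp12 (-0.0438 and -0.0327 by scaling to all reads with and without Rn45s, -0.0032 with a minimum mean of 50 reads, -0.00237 by DESeq2), for Slfn5 (0.0481 by limma-voom, 0.0062 without both siPhf2 libraries), and with the names exchanged for Slfn4 (-1.58), Slfn8 (-0.11), Parp9 (-0.91) and Parp12 (-1.43). Averaged siPhf2 values turned by scaling to all reads for Slfn1 (-1.92), Slfn4 (-0.46), Slfn5 (-0.96), Slfn8 (-1.77), Parp9 (-0.95), Parp10 (-0.45), Parp12 (-0.76) and Parp14 (-0.33), without Rn45s in the total for Slfn1 (-0.15), and by limma with 10 added for Slfn8 (-0.0354). With 1 library left out the siSmyd5 values ran from -0.35 to 0.45 for Slfn4, -0.57 to 0.59 for Slfn5, -0.22 to 0.81 for Slfn8, -0.58 to 0.44 for Parp10, -0.53 to 0.57 for Parp12 and -0.68 to 0.0796 for Parp14, and the siPhf2 values from -0.92 to 0.18 for Slfn2, -0.78 to 0.83 for Slfn8 and -0.0488 to 2.06 for Parp12; those of Slfn4 (0.11 to 2.27), Slfn5 (0.27 to 1.94), Parp9 (0.29 to 1.65) and Parp10 (0.65 to 2.47) kept their sign. Of the single siPhf2 ratios called by size, those scaled to all reads turned for Parp14 with vehicle (-0.77) and for Slfn5 (-0.21), Parp9 (-0.60) and Parp12 (-0.14) with KLA; of those not called, Slfn1 (-1.84), Slfn2 (-2.13) and Slfn8 (-1.35) with KLA and Slfn1 (-1.18), Slfn4 (-1.52), Slfn5 (-1.90), Parp9 (-1.66) and Parp10 (-1.28) with vehicle also changed sign. All averaged KLA values kept their direction in every alternative run. Depth limits the siPhf2 values most, where Slfn1, Slfn4 and Slfn8 had 1, 2 and 4 vehicle reads.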
